A study of Mus musculus with 6 samples.

Results

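The MCM helicase genes, Mcm2 to Mcm10, are 9 of the 18059 autosomal protein-coding genes that had a replication timing score in each profile of the series. They were chosen by name. Each gene was placed by its RefSeq coordinates on mm10 and took the smoothed score of the window nearest its midpoint, and windows within 500 kb on each side were read as its surroundings. The series sequenced genomic DNA from unsorted, growing cultures of mouse myeloid cells immortalised with HoxB8, obtained by GM-CSF selection and grown in IMDM with serum. There were 3 Recql4 -/- Klhdc3 -/- samples, in which a RecQ helicase gene and a ubiquitin ligase receptor gene are both disrupted, and 3 WT samples, and the labels name no treatment. Neither deposited table names its 6 value columns, so they are called profiles A to F in column order, no genotype is given to any of them, and no test between genotypes was possible. The labels do not say whether samples of a genotype are separate clones or repeat cultures.

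MCM2 to MCM7 form the ring-shaped helicase that is loaded around DNA in G1 and unwinds it in S phase once CDC45 and GINS join. MCM8 and MCM9 are related proteins that act together in homologous recombination. MCM10 is not a ring subunit: it binds the active helicase and takes part in starting DNA unwinding. Averaged over the cells of a growing culture, regions of DNA replicate in a largely set order through S phase. Early DNA is thus present in more copies than late DNA, and read depth follows that average order. The deposited score is centred on 0 and scaled in SD units in every profile (autosomes), and a higher score stands for earlier replication. At any single window, earlier replication and an altered copy number cannot be told apart.

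Timing was early at 8 of the 9 MCM genes, which scored above 0 in every profile, and late at Mcm3, which scored below 0 in every profile. Among all the genes scored, 76.4% were above 0 in each profile and 15.3% below 0 in each, so the count of early members was near that of genes in general. The median score over the members was 0.78, against 0.82 over all genes. The MCM genes held no common place in S phase. Mcm6 scored 1.38 to 1.62 and Mcm3 -0.50 to -0.32 over the profiles, and the other members lay between them.

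The order was largely shared by the profiles. Mcm6 was earliest and Mcm3 latest in each, and 32 of the 36 pairs of members stood in the same order in all 6. Ranked by median, the genes ran Mcm6, Mcm7, Mcm9, Mcm2, Mcm5, Mcm10, Mcm8, Mcm4 and Mcm3. In this ranking 5 of the 8 neighbouring pairs had ranges that overlapped: Mcm7 with Mcm9, and each step from Mcm2 through Mcm5, Mcm10 and Mcm8 to Mcm4. The 3 steps without overlap were those from Mcm6 to Mcm7 (a median difference of 0.35, higher in 6 of 6 profiles), from Mcm9 to Mcm2 (0.33, 6 of 6) and from Mcm4 to Mcm3 (0.95, 6 of 6). The members were thus an early gene, a pair behind it, 5 genes with overlapping neighbours, and 1 late gene. Mcm10, Mcm8 and Mcm4 had median percentiles among all genes of 40.6, 37.7 and 34.5. With Mcm3 they made 4 members that scored below the median gene in every profile, and 3 members, Mcm6, Mcm7 and Mcm9, scored above it in every profile. The same shares of all genes were not counted, so it is unknown whether these counts differ from those of genes in general.

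**Figure D1:**
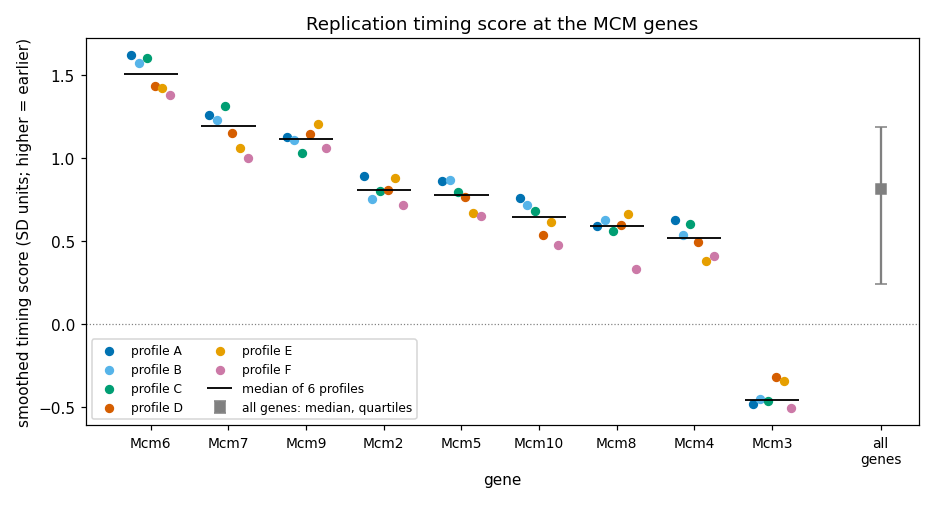
Smoothed timing score (y axis, SD units) of each MCM gene (x axis, earliest to latest by median) in profiles A to F (points), with the median of the 6 profiles as a bar and, at the right, the median and quartiles of all 18059 genes. Mcm6 lies between 1.38 and 1.62, Mcm3 between -0.50 and -0.32, and the 5 genes from Mcm2 to Mcm4 between 0.33 and 0.89.

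Mcm6, whose product is a core subunit of the helicase ring, was the earliest member (chromosome 1, 128331575 to 128359705). It scored 1.62, 1.57, 1.60, 1.44, 1.42 and 1.38 in profiles A to F. The values were high throughout and did not overlap those of any other member. Its percentile among all genes was 92.9 (88.7 to 95.5). The gene sat on the shoulder of a timing peak whose summit was 118 to 188 kb below its midpoint, and its own score was 0.0352 to 0.104 short of the highest score within 500 kb. All of the valued windows within that distance scored above 0 in each profile. Its closest neighbours, the lactase gene Lct 3.26 kb below and the aspartyl-tRNA synthetase gene Dars just above, scored 1.53 and 1.46 by median.

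Mcm3, another ring subunit, was the latest (chromosome 1, 20802966 to 20820312). It scored -0.48, -0.45, -0.47, -0.32, -0.35 and -0.50 in profiles A to F. Each value was below 0, and the percentile among all genes was 11.4 (10.7 to 13). The gene lay on a slope that climbed from -0.90 near the low-coordinate end of its surroundings to 0.02 at the other end (medians of the lowest and highest scores). The nearest timing peak was 736 to 918 kb above it, outside the surroundings read here. Il17f, an interleukin gene 17.7 kb below Mcm3, was similarly late with a median of -0.51, and Paqr8, a progestin receptor family gene 70.2 kb above it, had -0.31. Both ring subunits at the extremes of the order are on chromosome 1.

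The start regions of these 2 genes are shown because they mark the ends of the range in timing within 1 protein complex. The lines give the 250 bases before each gene's start from RefSeq (GRCm38.p6, both on the minus strand), with capitals for the E2F core motifs TTTCGCGC and TTTGGCGC and for the NF-Y motif CCAAT, on either strand.
Mcm6 (chr1:128359706-128359955): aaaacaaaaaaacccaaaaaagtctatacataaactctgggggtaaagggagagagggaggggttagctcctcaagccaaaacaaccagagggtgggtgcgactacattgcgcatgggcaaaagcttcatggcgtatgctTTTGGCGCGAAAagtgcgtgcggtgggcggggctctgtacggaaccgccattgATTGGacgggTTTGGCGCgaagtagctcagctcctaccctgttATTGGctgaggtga
Mcm3 (chr1:20820313-20820562): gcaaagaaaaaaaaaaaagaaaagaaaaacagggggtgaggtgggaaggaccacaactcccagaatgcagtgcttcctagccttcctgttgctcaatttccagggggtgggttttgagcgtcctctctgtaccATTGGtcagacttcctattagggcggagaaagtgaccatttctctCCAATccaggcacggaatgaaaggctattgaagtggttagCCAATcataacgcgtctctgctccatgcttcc

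The upstream stretch of Mcm6 held 3 E2F matches, of which 2 overlap, and 2 CCAAT matches, at 52.4% G+C. That of Mcm3 held 3 CCAAT matches and no E2F match, at 48% G+C, and its E2F match came 38 bases into the gene. E2F factors drive S-phase genes and NF-Y is a general activator of cell-cycle promoters. RefSeq start windows of 300 bases (250 before the start and 50 after) were matched for 8 of the 9 members, all but Mcm4, and Mcm7 had 2 such windows. An E2F core motif was present in 5 of these 9 windows, against 1.06% of the 21044 windows of protein-coding genes. CCAAT was present in 9 of 9, against 38.5%. Mcm3, Mcm5, Mcm6, Mcm7 and Mcm8 carried the E2F motif, so it was found at the earliest and at the latest member alike. A match describes the letters in the window and not factor binding.

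The E2F matches of the other carriers and of Mcm3 are set out to compare their flanks, in 30-base stretches read along each gene's strand with the motif in capitals. For Mcm5, whose 2 matches overlap on opposite strands, the same-strand match is marked, and the Mcm8 match is on the opposite strand.
Mcm3 (chr1:20820263-20820292, minus strand): cgggaaaacttgggaagtTTTGGCGCcaag
Mcm5 (chr8:75109345-75109374, plus strand): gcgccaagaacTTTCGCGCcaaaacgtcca
Mcm7 (chr5:138171849-138171878, minus strand): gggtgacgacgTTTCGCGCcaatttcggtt
Mcm8 (chr2:132816161-132816190, plus strand): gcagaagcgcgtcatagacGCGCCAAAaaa

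Mcm7 followed Mcm6 in the ranking (chromosome 5, 138164583 to 138172111). This ring subunit gene scored 1.26, 1.23, 1.31, 1.15, 1.06 and 1.00 in profiles A to F. Profile C was highest and F lowest, and the range of 0.31 was among the wider ones of the members. Its percentile was 74.6 (65.5 to 79.6). Mcm7 lay in the most gene-dense surroundings of the set, with 34 other protein-coding genes within 500 kb, against a median of 17 for all genes and 8 for the members. In 5 profiles the nearest timing peak was 83.7 to 196 kb below the gene, while in profile D the highest score within 500 kb was 472 kb above it. The gene overlaps the start of Ap4m1, an adaptor complex subunit gene on the opposite strand, by 0.09 kb.

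Mcm7 is also the host of a microRNA cluster, and its window therefore gives the timing of these small RNA genes as well. The mature forms of the 5-prime arms of miR-106b and miR-93 share a seed (bases 2 to 8, in capitals) that miR-25-3p does not have, as RefSeq (GRCm38.p6, minus strand of chromosome 5) gives them.
mmu-miR-106b-5p (chr5:138165787-138165807): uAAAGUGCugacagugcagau
mmu-miR-93-5p (chr5:138165574-138165596): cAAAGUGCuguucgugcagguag
mmu-miR-25-3p (chr5:138165332-138165353): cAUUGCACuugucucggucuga

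The Mcm8 and Mcm9 genes, whose products work as partners, were apart in timing. Mcm9 (chromosome 10, 53536315 to 53630006) scored 1.12, 1.11, 1.03, 1.14, 1.21 and 1.06 in profiles A to F. Profile E was highest and C lowest. It was almost at the summit of a peak, 41 to 81.1 kb away, and the widths of its range (0.18) and of its shortfall from the local maximum (0.0116 to 0.0380) were both small. Asf1a, a histone chaperone gene that lies within the span of Mcm9, scored 1.11 by median.

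Mcm8 (chromosome 2, 132816137 to 132844197) scored 0.59, 0.63, 0.56, 0.59, 0.66 and 0.33 in profiles A to F. Profile F was low, while the other 5 profiles lay between 0.56 and 0.66. No value of Mcm8 reached the lowest of Mcm9. Mcm8 lay on the steepest slope of the set, at -0.224 score units per 100 kb by median, from 1.35 at the low-coordinate end to -0.57 at the other (medians of the highest and lowest scores). The median absolute slope over all genes was 0.0686 per 100 kb, against 0.0990 over the members. Trmt6, a tRNA methyltransferase subunit gene 0.083 kb from Mcm8, scored 0.64.

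Mcm2 (chromosome 6, 88883474 to 88898780) encodes a ring subunit whose tail binds histones, and it scored 0.89, 0.75, 0.80, 0.81, 0.88 and 0.72 in profiles A to F. Profile A was highest and F lowest. It was on a slope as well, with a local maximum at the very edge of its surroundings and the nearest peak 568 to 829 kb below the gene. Its percentile among all genes was 51.2 (44.6 to 53.5), the closest to the middle together with Mcm5. Podxl2 and Tpra1 beside it scored 0.86 and 0.77. Chromosome 6 was not among the 12 chromosomes counted as without large shifts, and a shift at Mcm2 itself was not tested.

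Mcm5 (chromosome 8, 75109468 to 75128439), a ring subunit gene, scored 0.86, 0.87, 0.79, 0.76, 0.67 and 0.65 in profiles A to F. Profile B was highest and F lowest. The score was modest, yet the gene lay near the top of its own peak, 69.4 to 89.5 kb away, in surroundings where only 68.1% to 74.5% of the windows scored above 0. Mcm5 and Mcm9 were the members within 100 kb of a timing peak in each profile, and the summits differed in height: the highest scores within 500 kb were 0.84 at Mcm5 and 1.14 at Mcm9 by median. The share of all genes this close to a peak in each profile was not counted. Hmox1, the haem oxygenase gene 8.88 kb below Mcm5, scored 0.80.

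Mcm10 (chromosome 2, 4990724 to 5012791) is the gene of the unwinding factor that is no ring subunit, and it scored 0.76, 0.72, 0.68, 0.54, 0.61 and 0.48 in profiles A to F. Profile A was highest and F lowest. Its surroundings were the flattest after those of Mcm7, from 0.21 to 0.83 (medians of the lowest and highest scores), and all windows there scored above 0. Mcm4 (chromosome 16, 15623897 to 15637400), another ring subunit, scored 0.63, 0.54, 0.60, 0.50, 0.38 and 0.41. Profile A was highest and E lowest, and the values overlapped those of Mcm8 and Mcm10. The edge of Mcm4 lies 0.044 kb from that of Prkdc, the gene of the DNA-dependent protein kinase catalytic subunit. Prkdc scored 0.70 (0.51 to 0.87) at its own midpoint, in a window 115 kb above the midpoint of Mcm4.

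**Figure D2:**
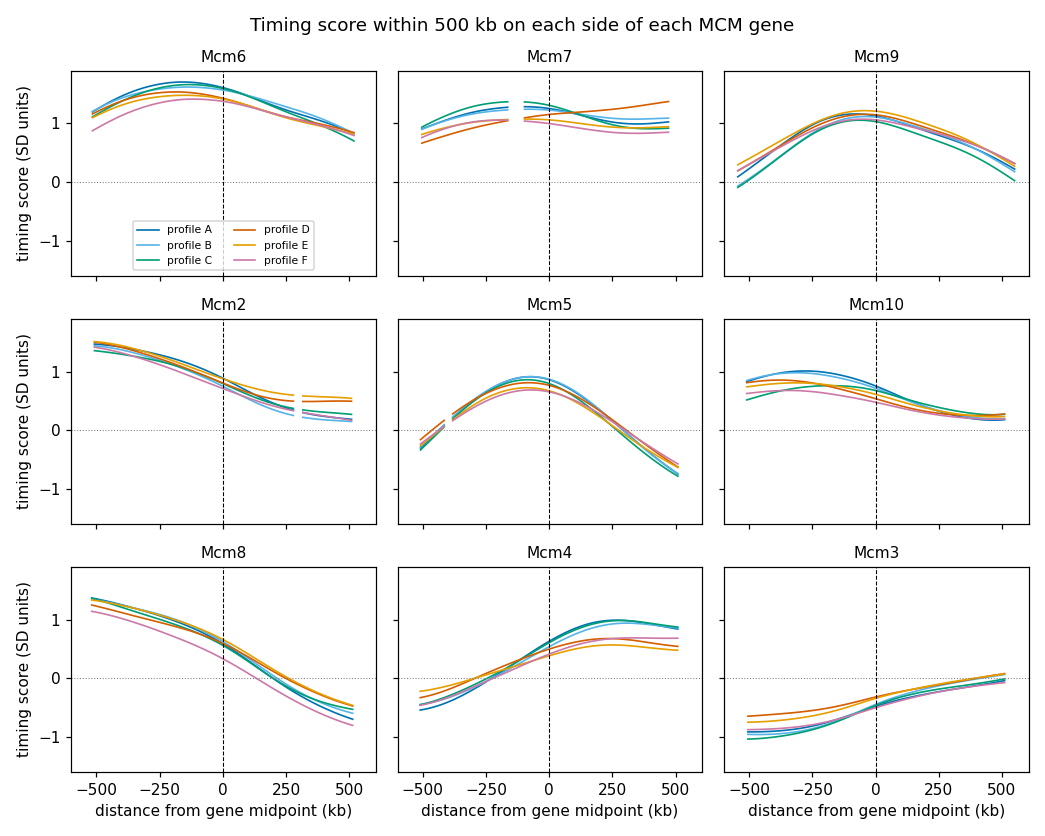
Smoothed timing score (y axis, SD units) against distance from the gene midpoint (x axis, kb), within 500 kb on each side of each MCM gene, with a line for each of profiles A to F and breaks where windows carried no value. Mcm5, Mcm6 and Mcm9 lie near the top of a peak, and Mcm2, Mcm3, Mcm4 and Mcm8 on slopes. Mcm7 and Mcm10 lie in flatter stretches that stay above 0, with Mcm7 near a peak in every profile but D.

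Within 500 kb of the genes the tables held 90 to 106 windows a gene, and at most 2 of these carried no value. Over these windows the score spanned 1.02 units by median. Profile F gave the lowest score at 7 of the 9 members. Among all genes it was lowest for 56.2%, with a median gene score of 0.70 in F and between 0.79 and 0.87 in the other profiles. The highest score came from profile A at 4 members (22.4% of all genes), from E at 2 (20.9%), and from B (16.9%), C (23.5%) and D (11.9%) at 1 each. None was highest in F, where 4.50% of all genes were.

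The unsmoothed table gave a second view of the same DNA. The raw copy level is scaled so that autosomes lie near 2, and its mean over the windows that overlap each gene had a median of 2.17 over the members. To set it against the score, a straight line of raw level on score was fitted over the autosomal windows of each profile, with slopes of 0.125 to 0.161 raw units per score unit. The raw level was above this line in each of the 6 profiles at 9 of 9 MCM genes. Among all genes with values 39.8% were above it in each profile. The median height above the line was 0.101 at the members and 0.0205 at all genes.

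The largest departure was at Mcm7, where the raw level was 2.44, 2.34, 2.40, 2.37, 2.40 and 2.34 in profiles A to F. That is 0.247 (0.184 to 0.278) above the line, at the 99.6th percentile of genes, from 2 windows. Mcm6 scored earlier but had lower raw levels, 2.26, 2.29, 2.32, 2.24, 2.27 and 2.32, at 0.0905 (0.0331 to 0.135) above the line. The 2 genes' raw ranges did not overlap, and their order was the reverse of that of their scores.

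Mcm3 had raw levels of 2.06, 2.04, 2.09, 2.06, 2.10 and 1.93 over its 3 windows in profiles A to F. The level in F was low, and the others lay between 2.04 and 2.10, above the autosomal medians of 1.96 to 1.98. These levels are 0.152 (0.0363 to 0.193) above the line, the second largest median of the members. In the single window nearest the gene's midpoint the raw levels were 2.22, 2.15, 2.21, 2.19, 2.21 and 1.93, against a mean of 1.89 to 1.92 over its surroundings. The gene's own windows were thus above its surroundings, clearly in profiles A to E and by little in F. On raw levels averaged within 50 kb and rescaled like the score, Mcm3 was still the latest member but stood above 0, at 0.22, and Mcm7 rather than Mcm6 was the earliest.

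At the other members the heights above the line were smaller. Mcm4 had 0.122 (0.0765 to 0.148), Mcm10 0.105 (0.0824 to 0.114) and Mcm2 0.101 (0.0576 to 0.107). Mcm5, with raw levels of 2.24, 2.11, 2.14, 2.16, 2.15 and 2.08, had 0.0747 (0.000515 to 0.132), lowest in F and B, where it was almost on the line. Mcm8 had 0.0730 (0.0206 to 0.0922) and Mcm9, the longest gene with 10 windows, 0.0311 (0.0250 to 0.0534).

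**Figure D3:**
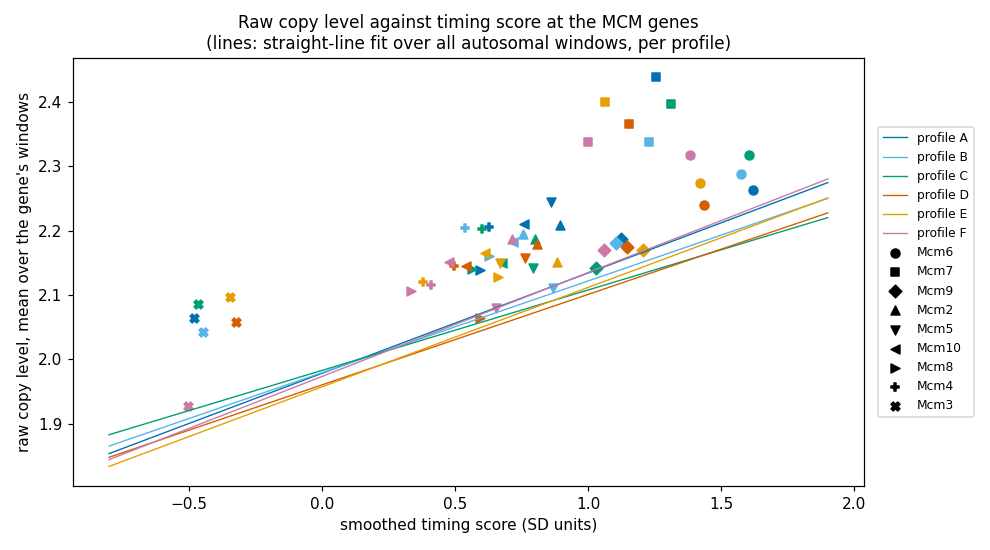
Mean raw copy level over the windows of each MCM gene (y axis) against its smoothed timing score (x axis, SD units), with colours for profiles A to F, a marker shape for each gene and, per profile, the straight line fitted over all autosomal windows. All points lie on or above their line, from 0.000515 at Mcm5 in profile F to 0.278 at Mcm7 in profile E.

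The agreement of the 6 profiles at a gene is not 6 separate observations of its height. Over 202423 autosomal windows the departures from the line had a Pearson r between profiles of 0.780 by median (0.759 to 0.797 over 15 pairs), so most of the scatter belonged to the window and recurred in each library. The SD around the line was at most 0.125 per window, and once each window's mean over the profiles was taken off, 0.0507 to 0.0548 was left. The source of the recurrent departures was not tested. In 50-kb bins the members' mean stood 0.0531 and 0.0522 above the line on the 2 sides of the midpoint. The mean of all genes stood 0.00657 and 0.00674 above it. In each of these 2 bins 8 of 9 members were above the line. Farther out, the members' means also reached 0.0355 (at 200 to 250 kb below the gene) and -0.0509 (at 200 to 250 kb above), so single bins of 9 genes vary by as much. In those bins 6 and 2 members were above the line. The share of all genes above the line was not counted by bin.

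**Figure D4:**
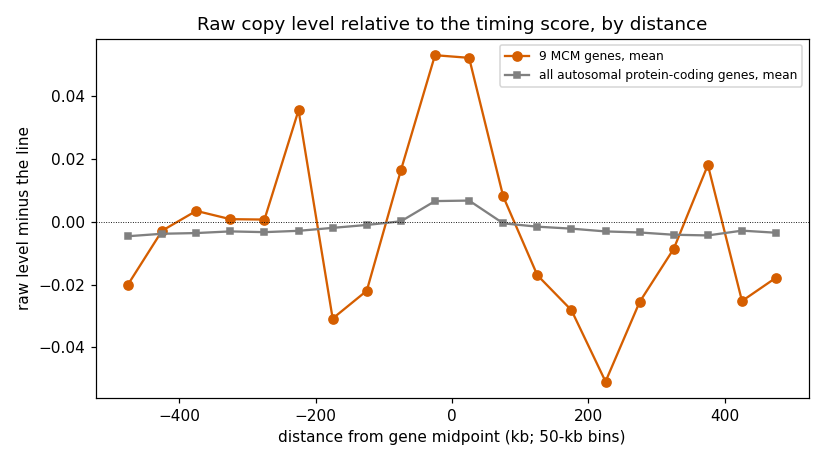
Mean height of the raw copy level above the straight line (y axis, raw units) in 50-kb bins of distance from the gene midpoint (x axis, kb), for the 9 MCM genes and for all autosomal protein-coding genes. The members' curve is highest in the 2 bins beside the midpoint, at 0.0531 and 0.0522, and also departs from 0 elsewhere, to -0.0509 at 200 to 250 kb above, while the curve of all genes stays within 0.00674 of 0.

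A pair of features that the choice of genes did not use were read beside the timing. Of the members, 8 of 9 had fewer protein-coding genes within 500 kb than the median gene, against 48.9% of all genes, and Mcm7 was the exception. The counts were 8 at Mcm6, the earliest, and 8 at Mcm3, the latest. Transcription was set against the slope of timing for the 8 members with a strand, by the scores 250 kb before and after the midpoint. Mcm2, Mcm6, Mcm9 and Mcm10 were transcribed toward earlier DNA in each profile and Mcm3, Mcm5 and Mcm8 toward later DNA, while Mcm7 was mixed. Among all genes with a strand 41.2% ran toward earlier and 40.5% toward later DNA in each profile, and the members did not stand out from this.

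Genes elsewhere in the genome with the most similar pattern were found by the root mean square difference in score over the 6 profiles, among 16926 genes on other chromosomes. For Mcm6 these were Dusp15 (0.0254) and Foxs1 (0.0300) on chromosome 2 and Gatad2a (0.0278) on chromosome 8. For Mcm3 they were Vmn1r175 on chromosome 7 (0.0306), Slc35f4 on chromosome 14 (0.0371) and Fam110b on chromosome 4 (0.0381). Within a difference of 0.1 there were 676 genes for Mcm6 and 115 for Mcm3. The difference is taken on the scores themselves, so these counts also depend on how many genes score near each member.

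The partners of the helicase were mostly early, over a wide range of scores. Of 33 other replication genes listed, covering origin recognition, loading, firing and fork factors, 30 had a score in each profile, and 28 scored above 0 in each and 2 below 0 in each, against 76.4% and 15.3% of all genes. Their median was 0.82. The late ones were Orc5, an origin recognition subunit, at -0.39 (-0.41 to -0.35) and Dbf4, the activator of the CDC7 kinase that phosphorylates the MCM ring, at -0.22 (-0.28 to -0.14). Mcm3 at -0.46 had a lower median than any of them. Donson, a factor that helps to form the active helicase, was the earliest of the list at 1.56 (1.30 to 1.69).

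Mcmdc2, an MCM-related gene of meiosis, scored 1.49 (1.36 to 1.67), near Mcm6. Mcmbp, whose product binds MCM subunits, scored 0.77 (0.68 to 0.83), near Mcm5. Of the 30 genes, 17 had a raw level above the line in each profile, against 39.8% of all genes, with a median height of 0.0542, between the 0.101 of the MCM genes and the 0.0205 of all genes. Cdc6, a helicase loader, and Gins2, a subunit of the GINS complex, had the largest, at 0.189 each.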

How the data were processed

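Whole-genome sequencing libraries of 3 Recql4 -/- Klhdc3 -/- and 3 WT samples were made as paired-end reads of 150 bp toward 30-fold coverage, per the labels' protocols. The cultures doubled in 15 to 18 hours with over 25% of cells in S phase (per the labels). The depth reached is unknown, so no counting interval is given. The authors deposited 2 tables without headers over 237602 windows (median 10041 bp): a raw copy level (autosomes near 2) and a smoothed timing score, each with 6 unnamed value columns for the 6 samples. The build mm10 and Picard 2.23.9 come from the submitters' processing notes, and TIGER from the series title. For the aligner, GC correction and smoothing, settings are not given in the sources used here.

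Computations used Python 3.11.15, numpy 2.4.6, pandas 2.3.3 and scipy 1.17.1, and the scripts were tested on simulated data with planted values. All 6 value columns of each table were used. Genes took the window nearest their midpoint within 50 kb, and peaks and valleys needed a prominence of 0.25. No test was made, since no column has a genotype. The members and lists were chosen with earlier results of these data known. All 9 members are named, with some of their nearest neighbours and the 3 most similar genes to the earliest and latest member. Of the other replication genes, the extremes, Mcmbp and Mcmdc2 are named. Dbf4, Cdc6 and Gins2 were named after their values were seen.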

Additional observations from a re-analysis of the deposited data

Results flagged for a closer look

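The 6 values of each member were screened for a profile far from the others, by Dixon's gap over the range, for the score and for the raw level over the gene. The profiles are not known replicates of each other, and chance alone flags about 5% of such groups. Of 18 groups of values, 3 were picked out. The Mcm8 score in profile F was 0.334, below the 0.562 to 0.663 of the other profiles. The Mcm3 raw level in profile F was 1.93, below the 2.04 to 2.10 of the others. The Mcm9 raw level in profile C was 2.14, against 2.17 to 2.19 in the others, a gap just past the limit.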

How the results depend on the processing

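No paired analysis was possible because neither table names its columns by sample or replicate. Genes were placed at their lower or upper coordinate, or the score was averaged over the gene or over 50 kb. In another alternative the score was rescaled over the 12 chromosomes without large shifts. None of these changed the earliest or the latest member, or the 8 members above 0. Leaving out a profile could not change them, because every profile shared them. Of 63 member values under alternatives other than leaving out a profile, 50 moved by less than the SD between profiles. Another 12 moved by more and 1 changed sign, and all of these were on rescaled raw levels, within 50 kb or 250 kb. Every value taken from the smoothed score moved by less than the SD. On raw levels within 250 kb only Mcm4 did so. The change of sign was at Mcm3, which stood at 0.22 on rescaled raw levels within 50 kb. There it was still the latest and Mcm7, at 1.40, the earliest. The members' median was 0.537 on rescaled raw levels within 250 kb, an average over a wider stretch. The other replication genes had a median of 0.743 on those within 50 kb. Within 50 kb of the midpoints the members' median raw level was 2.13 and its height above the line 0.0494, with 8 of 9 (all but Mcm4) above it in each profile, against 35.6% of all genes. The span of scores was 0.588 within 250 kb and 1.67 within 1000 kb, as wider stretches hold more of the slope. Depth per window is unknown, and the SD of 0.0507 to 0.0548 left within a window between profiles is the only measure of its precision. The alternatives on the height above the line and on the transcription slope, and profiles left out of the raw level, the span and the other replication genes, were chosen after the data were seen. Over 500 kb on each side 4 of the 8 members with a strand ran toward later DNA in each profile, against 42.1% of all genes with a strand.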
